A study of Homo sapiens with 24 samples.

Results

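Non-homologous end joining seals DNA double-strand breaks without a template. The genes taken from this pathway were PRKDC, XRCC5, XRCC6, DCLRE1C, POLL, POLM, LIG4, XRCC4, NHEJ1 and TP53BP1. Each was read on the probe set that the platform annotation gives to its symbol, taking the probe set with the highest mean where a gene has several. Of the 10 listed genes, 9 have a named probe set, 1 each, among 17687 measured genes with a symbol; POLM, which encodes DNA polymerase mu, has none and is not analysed here. The 9 genes were above background on all 24 arrays.

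The arrays measured total RNA of cultured parental ES8 cells, derived from a human Ewing sarcoma, and of ES8-1F2, 1 derivative line made by CRISPR/Cas9 knockout of SLFN11, whose product is recruited to stalled replication forks. Both lines grew in the same serum-containing medium and were exposed to 2 Gy or 0 Gy of gamma radiation, and RNA was collected 24 h or 4 h later. The 8 groups are the knockout line and the parental line in each of the 4 conditions of dose and time, with 3 replicate arrays each. All values are log2 signals of whole-transcript arrays, so a difference of 1 is a 2-fold change, and probe sets of different genes are not compared with each other. With 1 knockout line, effects of the knockout and of the derivation of this line cannot be told apart. The labels do not say that the replicates came from separate cultures, and the p-values cover only the variation among these arrays, which may be technical.

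In the cell, the Ku heterodimer of Ku70 (XRCC6) and Ku80 (XRCC5) slides onto a broken DNA end and recruits the DNA-PK catalytic subunit (PRKDC), a large kinase. The nuclease Artemis (DCLRE1C) and the polymerases lambda (POLL) and mu trim and fill ends that do not match. DNA ligase IV (LIG4) joins them with its partner XRCC4 and the filament-forming factor XLF (NHEJ1), and 53BP1 (TP53BP1) holds back end resection in the flanking chromatin. Ewing sarcoma is driven by a fusion of EWSR1 with an ETS family factor, which binds GGAA repeats.

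The promoters of NHEJ1 and DCLRE1C are printed because both genes were higher in knockout cells, and that of XRCC6 because it was not called in any comparison. Each window is the RefSeq GRCh38.p14 sequence from 250 bases before to 50 after the gene's first listed start, 5′ to 3′ on the gene's strand. The windows are chr2:219160766-219161065 on the minus strand for NHEJ1, chr10:14954383-14954682 on the minus strand for DCLRE1C and chr22:41621045-41621344 on the plus strand for XRCC6. Capitals mark CCAAT and GGGCGG (the CCAAT and GC boxes) on either strand, which do not overlap each other here.
NHEJ1: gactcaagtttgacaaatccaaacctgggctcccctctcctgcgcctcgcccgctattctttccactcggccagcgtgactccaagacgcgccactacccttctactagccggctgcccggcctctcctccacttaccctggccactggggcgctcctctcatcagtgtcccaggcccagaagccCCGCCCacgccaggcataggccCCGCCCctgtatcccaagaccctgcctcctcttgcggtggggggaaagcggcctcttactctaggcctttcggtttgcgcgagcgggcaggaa
DCLRE1C: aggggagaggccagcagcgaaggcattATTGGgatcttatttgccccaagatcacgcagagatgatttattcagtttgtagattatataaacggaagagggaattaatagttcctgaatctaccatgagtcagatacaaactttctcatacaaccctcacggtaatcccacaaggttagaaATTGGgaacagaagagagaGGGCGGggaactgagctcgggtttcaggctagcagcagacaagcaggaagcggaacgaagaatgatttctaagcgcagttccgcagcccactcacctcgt
XRCC6: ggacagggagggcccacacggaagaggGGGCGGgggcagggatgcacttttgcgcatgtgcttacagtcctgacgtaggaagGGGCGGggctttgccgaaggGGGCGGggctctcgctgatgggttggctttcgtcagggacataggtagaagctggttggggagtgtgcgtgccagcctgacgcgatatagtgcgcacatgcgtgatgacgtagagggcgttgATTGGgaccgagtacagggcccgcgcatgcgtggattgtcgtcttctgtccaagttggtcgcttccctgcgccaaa
Of the 10 listed genes, 8 have a window in the table. The letters CCAAT, on either strand, are in the windows of 5 of these 8 genes (DCLRE1C, POLM, TP53BP1, XRCC4 and XRCC6), against 34.6% of all 35116 windows of this length. GGGCGG is in 6 of the 8 (those 5 and NHEJ1), against 45% of all windows. The ETS letters CCGGAAGT are in the windows of LIG4 and POLL, against 4.14% of all windows, and GGAAGGAA is in that of POLM, against 3.67%. These matches describe the letters of the windows, not binding sites.

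SLFN11 averaged 6.83 ± 0.26 in knockout cells and 8.30 ± 0.18 in parental cells (log2 signal, SD, n = 12 arrays each), a difference of -1.47 (SE 0.07, limma adjusted p = 1.07e-18); its signal in knockout cells was above the background level of 3.46 to 3.81, and the probe set may lie outside the edited part. Of the Ewing sarcoma markers, 8 of 8 measured genes were above background on all arrays. Of markers of other cells, this held for 1 of 5 blood genes, 2 of 5 epithelial genes and 1 of 4 endothelial genes, and LYZ, CDH1 and TEK were on no array. The summed Ewing marker level was 11.39 to 11.59 on knockout arrays and 11.32 to 11.48 on parental arrays. Single markers differed in both directions. Over all arrays of each line, PRKCB, LIPI and CD99 were higher in knockout cells without overlap and GLI1 was lower without overlap. The lines overlapped for the other measured Ewing markers, and 5.65% of all genes did not overlap. Replicate 2 of the parental 2 Gy groups had a narrower signal range than any other array, the interquartile range being 3.34 (24 h) and 3.28 (4 h), against 3.42 to 3.62 elsewhere. Several results of the end-joining genes that rest on these arrays are given with and without them. In these bulk samples, fewer cells of a type and less RNA per cell cannot be told apart.

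Between the lines, averaged over the 4 conditions, NHEJ1 and DCLRE1C were higher and PRKDC was lower in knockout cells. NHEJ1 was 1.33-fold and DCLRE1C 1.26-fold the parental level, and PRKDC was 0.896-fold. LIG4 and XRCC4 had averaged differences of 0.21 and 0.20 that did not pass the test and that were 0.12 and 0.09 without the 2 narrow arrays, and XRCC5, XRCC6, POLL and TP53BP1 had differences of at most 0.04 in size. So 3 of 9 genes were called in limma (adjusted p below 0.05, Benjamini-Hochberg), against 30.4% of all 17687 genes, and in this fit the share called in the pathway was near that of all genes. By direction, 2 of 9 were higher, against 15.8% of all genes, and 1 of 9 was lower, against 14.6%. The median difference of the 9 genes was 0.03, against -0.02 for all genes. In the fit blocked on replicate number, 5 of 9 were called, against 33.5% of all genes, so how near the shares are depends on the fit.

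Among the genes that recognise the break, PRKDC was the one that differed between the lines. Its log2 signals at 2 Gy, 24 h were 9.25, 9.29 and 9.05 in knockout cells, against 9.29, 9.56 and 9.40 in parental cells. At 0 Gy, 24 h they were 9.37, 9.245 and 9.15 in knockout cells, against 9.44, 9.47 and 9.33 in parental cells. At 2 Gy, 4 h they were 9.12, 9.34 and 9.30 in knockout cells, against 9.385, 9.60 and 9.38 in parental cells. In both irradiated conditions every knockout array lay below every parental array, by a narrow margin at 24 h. At 0 Gy, 4 h the values were 9.17, 9.21 and 9.13 in knockout cells, against 9.12, 9.255 and 9.29 in parental cells, and the groups overlapped, as they did at 0 Gy, 24 h. Over all conditions PRKDC averaged 9.22 ± 0.10 in knockout cells and 9.38 ± 0.13 in parental cells (SD, n = 12 arrays each), a difference of -0.16 (SE 0.04, 95% interval -0.24 to -0.07, limma adjusted p = 0.00373). Of the 12 parental arrays, 7 were above the highest knockout array. The differences in single conditions were -0.22 at 2 Gy, 24 h, -0.16 at 0 Gy, 24 h, -0.21 at 2 Gy, 4 h and -0.05 at 0 Gy, 4 h, none of them called. Without both narrow arrays, those at 2 Gy were -0.15 at 24 h and -0.13 at 4 h. In the fit of all arrays blocked on replicate number the difference at 2 Gy, 24 h was called (adjusted p = 0.0305), as 1 of 9 genes against 15.2% of all genes in that fit.

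For the Ku subunits the intervals of the line difference were narrow and held 0. XRCC6 had its lowest, median and highest log2 signals at 10.45, 10.59 and 10.67 in knockout cells and at 10.50, 10.63 and 10.70 in parental cells. The difference was -0.03 (95% interval -0.09 to 0.02, limma adjusted p = 0.401). XRCC5 had 9.27, 9.40 and 9.45 in knockout cells and 9.17, 9.39 and 9.53 in parental cells. Its difference was -0.002 (95% interval -0.07 to 0.07, adjusted p = 0.976). Both intervals leave out differences of more than 0.1 on the log2 scale, and the SDs over the 12 arrays were 0.05 in knockout cells and 0.09 in parental cells for XRCC5, and 0.07 and 0.06 for XRCC6 in the same lines.

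Of the end-processing genes, DCLRE1C, the Artemis nuclease, was higher in knockout cells. Its log2 signals at 2 Gy, 24 h were 6.18, 6.12 and 5.85 in knockout cells, against 6.01, 5.68 and 5.65 in parental cells. At 0 Gy, 24 h they were 6.26, 6.17 and 6.09 in knockout cells, against 5.71, 5.76 and 5.81 in parental cells. This was the condition in which the lines did not overlap. At 2 Gy, 4 h they were 6.21, 6.06 and 5.99 in knockout cells, against 6.02, 5.59 and 5.86 in parental cells, and at 0 Gy, 4 h they were 6.33, 6.33 and 6.03 in knockout cells, against 5.72, 5.67 and 6.20 in parental cells. All 12 knockout arrays were above the parental median, and 8 of 12 parental arrays were below the lowest knockout array. The averaged difference was 0.33 (SE 0.08, 95% interval 0.18 to 0.48, limma adjusted p = 0.000814). It was 0.27 at 2 Gy, 24 h, 0.41 at 0 Gy, 24 h, 0.27 at 2 Gy, 4 h and 0.37 at 0 Gy, 4 h. None of these passed the test. POLL, the gap-filling polymerase lambda, had its lowest, median and highest signals at 5.57, 5.74 and 5.89 in knockout cells and at 5.53, 5.69 and 6.01 in parental cells, a difference of 0.03 (95% interval -0.10 to 0.17, adjusted p = 0.761).

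**Figure D1:**
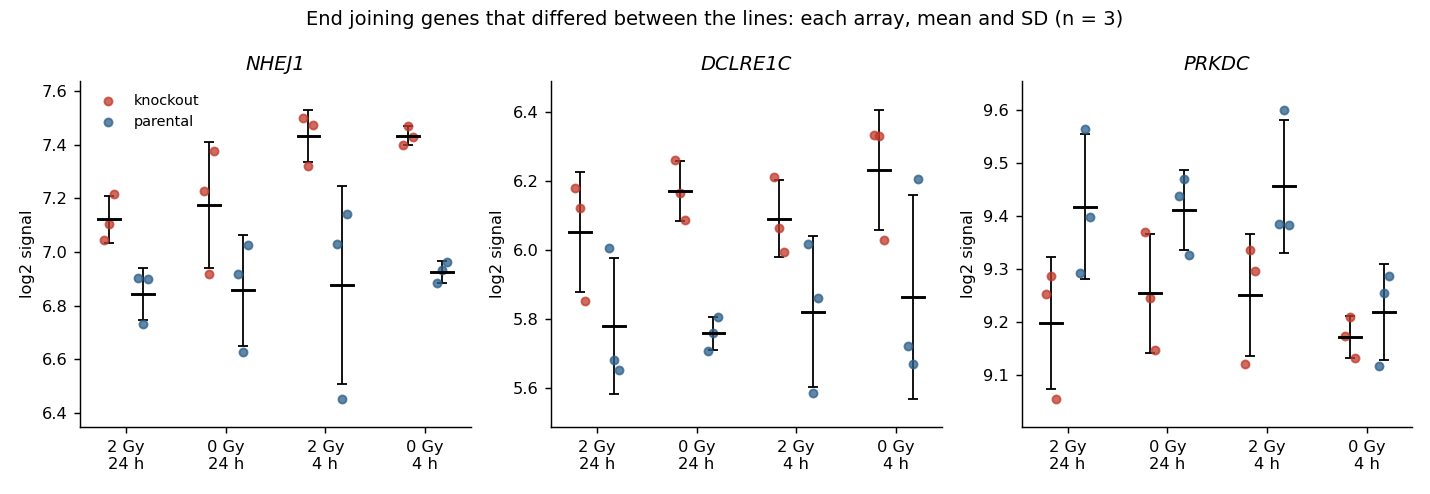
Log2 signal (vertical axis) of NHEJ1, DCLRE1C and PRKDC on each of the 24 arrays, by condition (horizontal axis), with knockout cells left of parental cells; points are arrays, and bars are the group mean and SD (n = 3). NHEJ1 and DCLRE1C have higher means in knockout cells in all 4 conditions, PRKDC has lower ones, and over the 12 arrays of each line the values of all 3 genes overlap.

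Of the ligation genes, NHEJ1, which encodes XLF, had the largest difference of the 9 genes. At 2 Gy, 24 h its log2 signals were 7.04, 7.10 and 7.22 in knockout cells, against 6.90, 6.73 and 6.90 in parental cells. At 0 Gy, 24 h they were 7.23, 6.92 and 7.38 in knockout cells, against 6.92, 6.63 and 7.03 in parental cells. At 24 h the lines overlapped without irradiation and did not overlap after 2 Gy, though the difference was not larger after 2 Gy (0.28, against 0.32 at 0 Gy). At 2 Gy, 4 h they were 7.5, 7.32 and 7.47 in knockout cells, against 7.03, 6.45 and 7.14 in parental cells. At 0 Gy, 4 h they were 7.40, 7.47 and 7.43 in knockout cells, against 6.88, 6.93 and 6.96 in parental cells, and at 4 h the lines did not overlap at either dose. NHEJ1 averaged 7.29 ± 0.19 in knockout cells and 6.88 ± 0.19 in parental cells (SD, n = 12 arrays each), a difference of 0.41 (SE 0.07, 95% interval 0.27 to 0.55, limma adjusted p = 1.02e-05). On 9 of 12 knockout arrays it was above the highest parental array. Among all genes, 89.2% had a smaller averaged difference in size, against 85.3% for DCLRE1C and 63.7% for PRKDC.

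LIG4, the ligase itself, had its lowest, median and highest log2 signals at 5.25, 5.69 and 6.06 in knockout cells and at 4.95, 5.47 and 5.76 in parental cells. The difference was 0.21 (SE 0.09, 95% interval 0.02 to 0.40, limma adjusted p = 0.0984). XRCC4, the scaffold of the ligase, had 6.42, 6.68 and 6.98 in knockout cells and 6.03, 6.59 and 6.86 in parental cells. The difference was 0.20 (SE 0.09, 95% interval 0.03 to 0.38, adjusted p = 0.0746). At 0 Gy, 24 h XRCC4 had 6.98, 6.62 and 6.86 in knockout cells, against 6.58, 6.15 and 6.47 in parental cells, without overlap, and the difference of 0.42 was not called (adjusted p = 0.123). In the fit blocked on replicate number, 5 of 9 genes were called in the averaged difference, against 33.5% of all genes in that fit, LIG4 (adjusted p = 0.0458) and XRCC4 (adjusted p = 0.0177) being the added ones. TP53BP1, the chromatin factor, had 5.92, 6.07 and 6.29 in knockout cells and 5.83, 6.17 and 6.34 in parental cells. Its difference was -0.04 (95% interval -0.18 to 0.10, adjusted p = 0.712).

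**Figure D2:**
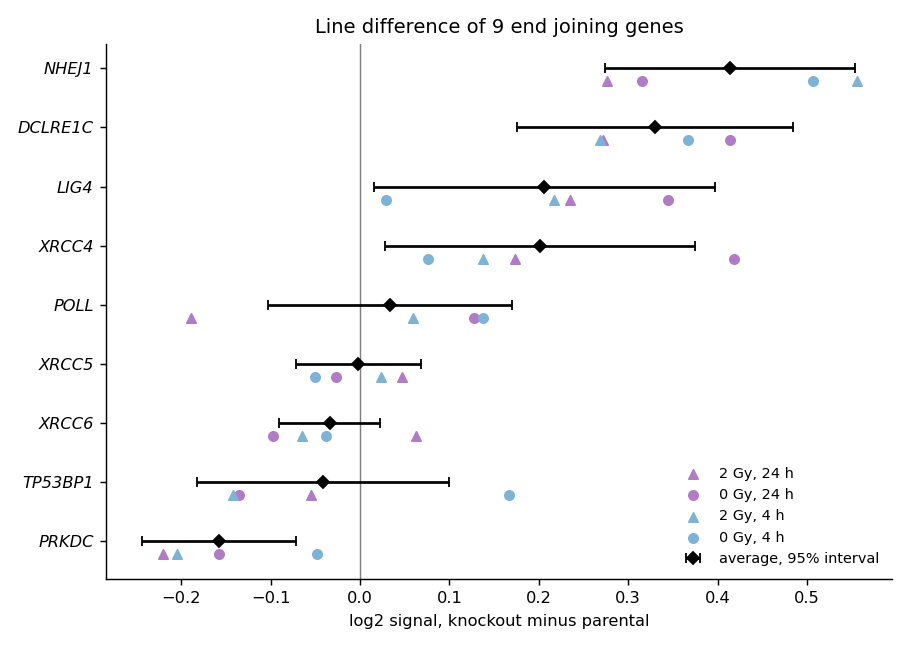
Knockout minus parental difference in log2 signal of the 9 genes, averaged over the 4 conditions and in each condition; diamonds with bars are the averaged limma estimates with 95% intervals, and circles (0 Gy) and triangles (2 Gy) are the single conditions, coloured by time. The averaged intervals of NHEJ1, DCLRE1C, LIG4 and XRCC4 lie above 0 and that of PRKDC lies below 0, of which the call passed for NHEJ1, DCLRE1C and PRKDC.

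The parental arrays of narrow signal range held extreme values of several of these genes. At 4 h, replicate 2 of the irradiated parental cells had the lowest signal of all 24 arrays for NHEJ1 (6.45), DCLRE1C (5.59), LIG4 (4.95) and XRCC4 (6.03), and the highest for PRKDC (9.60). At 24 h, replicate 2 had the lowest signal for XRCC5 (9.17), the next-to-highest for PRKDC (9.56) and the highest for POLL (6.01). Without both arrays, the averaged differences were 0.35 for NHEJ1 (limma adjusted p = 2.41e-05), 0.29 for DCLRE1C (adjusted p = 0.00392) and -0.12 for PRKDC (adjusted p = 0.0238), and the calls held. For LIG4 and XRCC4 the differences without them were 0.12 (adjusted p = 0.354) and 0.09 (adjusted p = 0.374). With all arrays, XRCC4 had a difference of 0.17 at 2 Gy, 24 h and of 0.14 at 2 Gy, 4 h; without the narrow arrays these turned to -0.02 and -0.10. The difference of DCLRE1C at 2 Gy, 4 h was 0.15 without them, against 0.27 with all arrays. LIG4 had 0.09 at 2 Gy, 24 h and 0.03 at 2 Gy, 4 h without them, against 0.23 and 0.22.

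In single conditions NHEJ1 alone of the 9 genes was called, at 4 h. The line difference was 0.56 at 2 Gy, 4 h (limma adjusted p = 0.00471), where 1 of 9 genes compares with 12% of all genes, and 0.51 at 0 Gy, 4 h (adjusted p = 0.0107), where 1 of 9 compares with 11.8%. At 24 h it was 0.28 at 2 Gy (adjusted p = 0.236) and 0.32 at 0 Gy (adjusted p = 0.155), and 0 of 9 genes were called, against 12% and 11.6% of all genes at these doses; 1 gene had an unadjusted p below 0.05 at 2 Gy and 3 had one at 0 Gy. Without the narrow array of irradiated parental cells at 4 h, the difference at 2 Gy, 4 h was 0.34 and the call was lost (adjusted p = 0.0974). Without both narrow arrays, the difference of NHEJ1 at 2 Gy, 24 h was 0.22. The groups did not overlap for 2 of 9 genes at 2 Gy, 24 h, 2 at 0 Gy, 24 h, 2 at 2 Gy, 4 h and 1 at 0 Gy, 4 h, against 25.7%, 26.6%, 24.2% and 26.1% of all genes. An F-test of whether the line difference varied among the 4 conditions called 0 of 9 genes and 0% of all genes (limma), and its lowest unadjusted p among the 9 was 0.223, for XRCC6.

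**Figure D3:**
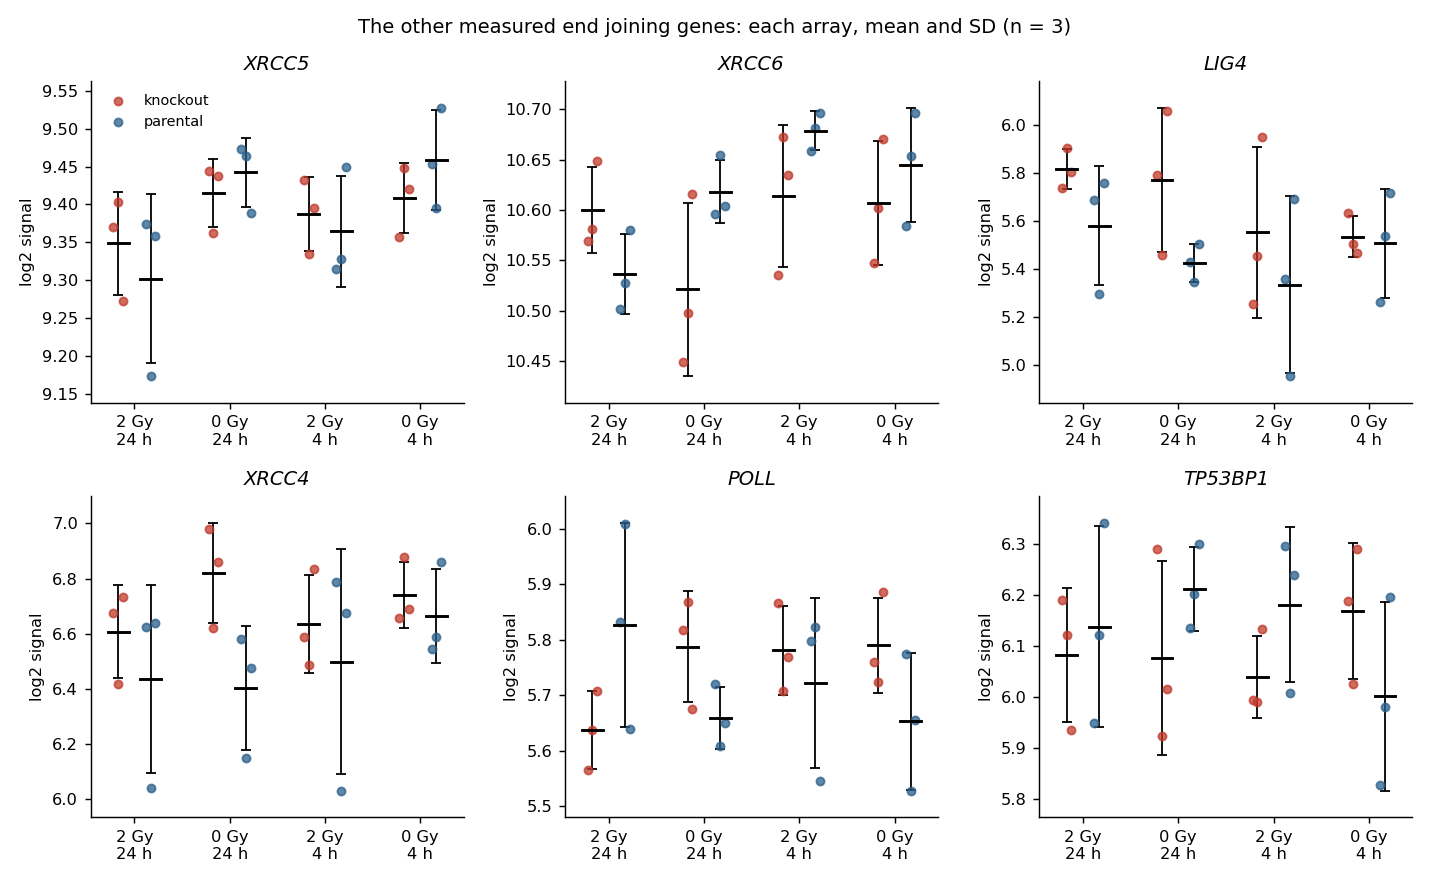
Log2 signal (vertical axes) of XRCC5, XRCC6, POLL, LIG4, XRCC4 and TP53BP1 on each of the 24 arrays, by condition, with knockout cells left of parental cells; points are arrays, and bars are the group mean and SD (n = 3). Over all 12 arrays of a line, the lines overlap for each gene, and the low parental values of LIG4 and XRCC4 at 2 Gy are those of replicate 2.

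Ordered by group mean, the 8 groups of a gene were mostly within their spread of each other. Of the 7 steps between neighbouring groups, NHEJ1 had 2 that were larger than the SD of both groups. These were the step of 0.26 between knockout cells at 2 Gy, 4 h and knockout cells at 0 Gy, 24 h, where the mean ± SD was 7.43 ± 0.10 and 7.17 ± 0.23, and the step of 0.20 between knockout cells at 2 Gy, 24 h (7.12 ± 0.09) and parental cells at 0 Gy, 4 h (6.93 ± 0.04, n = 3 each). All 4 knockout groups of NHEJ1 ranked above all 4 parental groups, and the same held for DCLRE1C, for which no single step exceeded the spread. PRKDC and XRCC6 had 1 such step each, and the other 5 genes had 0. The lowest and the highest group mean were 0.59 apart for NHEJ1, 0.48 for LIG4, 0.47 for DCLRE1C, 0.42 for XRCC4, 0.29 for PRKDC and 0.16 to 0.21 for the other 4 genes.

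Irradiation changed no end-joining gene by the test. At 24 h after 2 Gy, 0 of 9 genes were called in knockout cells, against 0% of all genes, and 0 of 9 in parental cells, against 0.0678%. At 4 h, 0 of 9 were called in knockout cells, against 0% of all genes, and 0 of 9 in parental cells, against 0.226%. At an unadjusted p below 0.05, limma gave 0 and 1 genes in knockout and parental cells at 24 h, and 0 and 1 at 4 h. Over both lines and times, 0 of 9 were called, against 0.294% of all genes, and 1 had an unadjusted p below 0.05. The 95% intervals of the 9 genes in these 4 responses lay between -0.56 and 0.54, and larger changes lie outside all of them. The summed level of 10 proliferation markers at 4 h was 12.69 to 12.71 in knockout cells at 2 Gy and 12.79 to 13.02 at 0 Gy, and 12.44 to 12.53 in parental cells at 2 Gy and 12.73 to 12.88 at 0 Gy. Their part in the values of the end-joining genes was not tested.

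With all arrays, the largest response was that of PRKDC in parental cells at 4 h. Its signals, given above, did not overlap between 2 Gy and 0 Gy, as was so for 11% of all genes in that comparison, and for 1 of the 9. The response was 0.24 (SE 0.08, limma unadjusted p = 0.00854, adjusted p = 0.556). Without the narrow arrays it was 0.16 (adjusted p = 1), below the responses of LIG4 (0.30) and XRCC4 (0.23) in parental cells at 24 h and of TP53BP1 (0.27) at 4 h, none of them called. In knockout cells at 4 h the response of PRKDC was 0.08. The difference between its responses in the 2 lines was -0.16 with all arrays (95% interval -0.40 to 0.09) and -0.08 without the narrow ones. In parental cells at 24 h, XRCC5 had 9.37, 9.17 and 9.36 at 2 Gy and 9.47, 9.46 and 9.39 at 0 Gy, a response of -0.14 (unadjusted p = 0.0491, adjusted p = 0.719), and -0.08 (adjusted p = 0.954) without the narrow array. XRCC6 did not overlap there either, with 10.50, 10.53 and 10.58 at 2 Gy and 10.60, 10.65 and 10.60 at 0 Gy, a response of -0.08 (adjusted p = 0.863); non-overlap in 2 of 9 genes compares with 12.3% of all genes.

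The responses did not differ between the lines for any of the 9 genes by the test, against 0% of all genes called at 24 h and at 4 h (limma), with 0 of 9 at an unadjusted p below 0.05 at either time. At 24 h the difference of responses was 0.16 for XRCC6 (95% interval -0.0005 to 0.32, limma unadjusted p = 0.0507) and -0.32 for POLL (-0.70 to 0.07, unadjusted p = 0.104). POLL had 5.57, 5.64 and 5.71 at 2 Gy in knockout cells and 5.82, 5.87 and 5.68 at 0 Gy, while in parental cells it had 5.83, 6.01 and 5.64 at 2 Gy and 5.72, 5.61 and 5.65 at 0 Gy. The highest of these parental values is from the narrow array. Without the narrow arrays, the difference of responses at 24 h was 0.16 for XRCC6 and -0.23 for POLL. For XRCC4 at 24 h it was -0.44 without them, against -0.25 with all arrays, called in neither fit. At 4 h the difference was -0.31 for TP53BP1 with all arrays (-0.71 to 0.09, limma unadjusted p = 0.125) and -0.40 without the narrow ones, called in neither fit. For the 9 genes the 95% intervals of these differences, with all arrays, reached from -0.74 to 0.73.

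**Figure D4:**
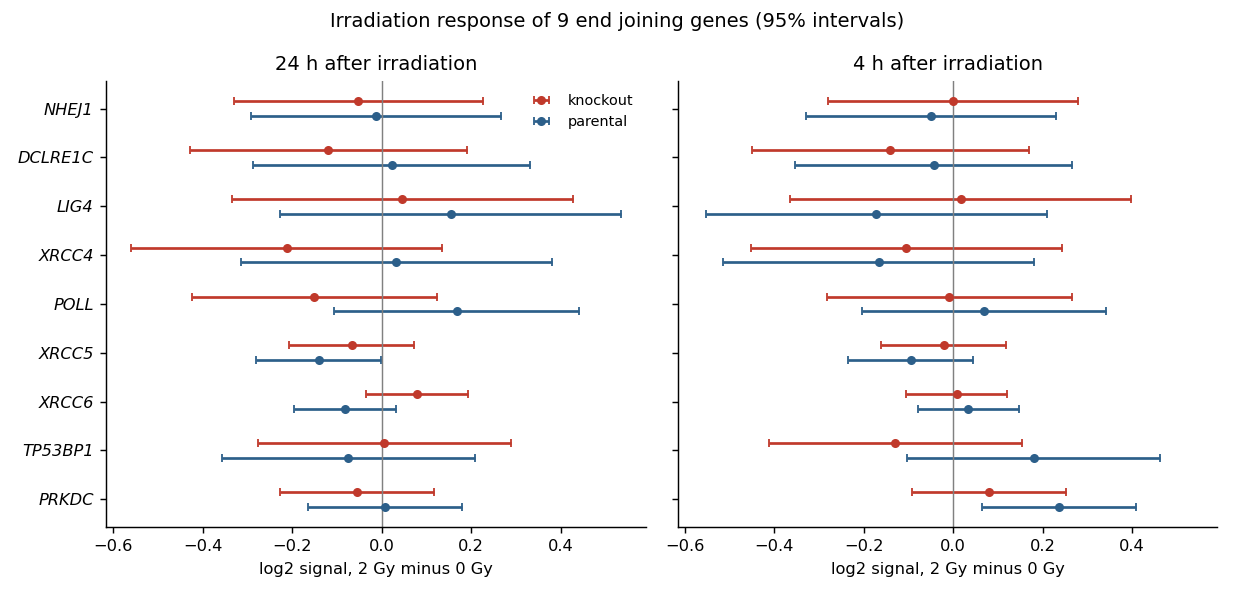
Irradiation response (2 Gy minus 0 Gy, log2) of the 9 genes in knockout and parental cells, at 24 h and 4 h; points are limma estimates and bars 95% intervals. Only PRKDC in parental cells at 4 h and XRCC5 in parental cells at 24 h have intervals that leave out 0, and neither was called.

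Time after treatment called 0 of 9 genes, against 2.89% of all genes averaged over lines and doses, with 2 of 9 at an unadjusted p below 0.05 (limma). In single lines and doses 0 of 9 were also called, against 0.0452% of all genes in knockout cells at 2 Gy, 0% at 0 Gy, 0.695% in parental cells at 2 Gy and 0% at 0 Gy, and 1, 0, 1 and 1 of the 9 had an unadjusted p below 0.05. NHEJ1 had an averaged difference of -0.17 between 24 h and 4 h (95% interval -0.31 to -0.03, adjusted p = 0.206). In knockout cells every array of NHEJ1 at 24 h was below every array at 4 h at the same dose (2 of 9 genes did not overlap at 2 Gy, against 13.1% of all genes, and 1 of 9 at 0 Gy, against 12.3%), with differences of -0.31 at 2 Gy and -0.26 at 0 Gy (adjusted p = 0.564 and 0.749), and in parental cells the differences were -0.03 and -0.07. The parental difference at 2 Gy was -0.19 without the narrow arrays, and whether the lines differ in the time difference was not tested on its own. The F-test over the 4 conditions, which includes such a difference, did not call NHEJ1 (limma F-test, unadjusted p = 0.398). Without both narrow arrays the averaged difference was -0.21 and passed the test (adjusted p = 0.0483). XRCC6 had an averaged difference of -0.07 (adjusted p = 0.216) and LIG4 of 0.17 (adjusted p = 0.409).

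The measured genes beside each end-joining gene on its chromosome, 10 on each side in RefSeq order, give the local background of the line difference. Neighbours above background on no array are counted too. A median near 0 therefore does not show that the expressed neighbours were alike in the lines. Of all genes, 15.8% were called higher and 14.6% lower. Beside NHEJ1 on chromosome 2, 6 of 20 neighbours were called higher and 1 lower in knockout cells, with a median of -0.0046 against its own 0.41, and 3 had a difference above its own. Beside DCLRE1C on chromosome 10, 8 were called higher and 3 lower, with a median of 0.17 against its own 0.33 and 4 of 20 above its own. PRKDC on chromosome 8 had 2 neighbours called higher and 0 lower, with a median of -0.0042 against its own -0.16. Of the 20 neighbours of XRCC4 on chromosome 5, 0 were called higher and 8 lower, and 0 had a difference above its own 0.20. Beside POLL, also on chromosome 10, 11 were called higher and 0 lower, and 14 of 20 had a difference above its own 0.03. Beside LIG4 on chromosome 13, 1 was called higher and 3 lower, with a median of -0.05 against its own 0.21. XRCC5, XRCC6 and TP53BP1 had 3, 1 and 4 neighbours called higher and 4, 5 and 5 called lower, with medians of -0.01 to -0.09.

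**Figure D5:**
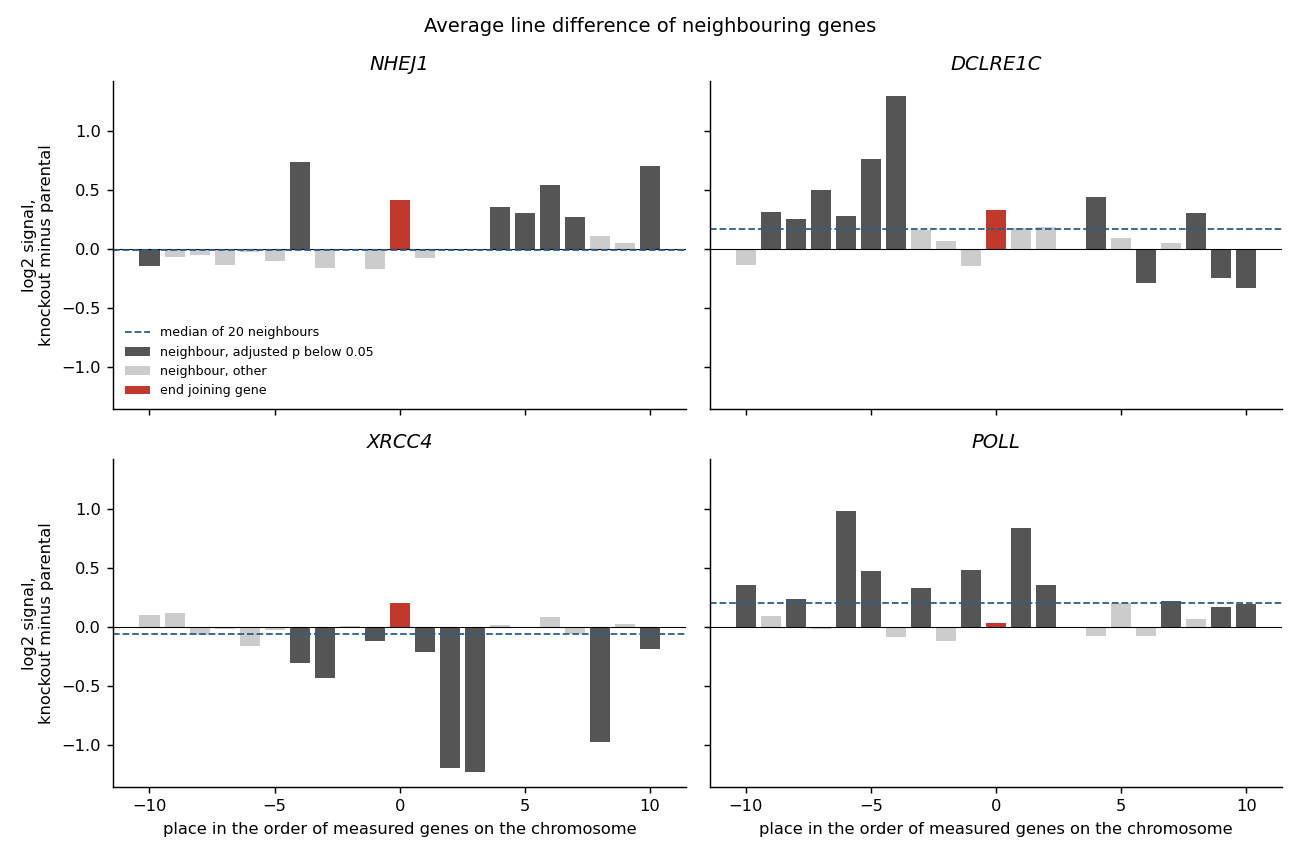
Knockout minus parental difference in log2 signal, averaged over the 4 conditions (vertical axes), of NHEJ1, DCLRE1C, XRCC4 and POLL (place 0, red bars) and of the 10 measured neighbours on each side (grey bars, dark where called), with the median of the neighbours as a dashed line. That median is 0.17 beside DCLRE1C and 0.20 beside POLL, and the bar of XRCC4 is above those of all its 20 neighbours.

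The gene whose pattern was nearest to each of these was chosen among 17686 others by Pearson's r over the 24 arrays, after the mean of each line was taken off both genes, as a description. The arrays share normalization, signal range and replicate numbers. NHEJ1 was nearest to ATG3 (r = 0.89, with 0.87 over the 12 knockout arrays and 0.93 over the 12 parental arrays), XRCC4 to UTP6 (r = 0.87), XRCC5 to DNM1L (r = 0.87) and XRCC6 to PHF5A (r = 0.86). LIG4 was nearest to EXOC2 (r = 0.84), PRKDC to SYMPK (r = 0.77), POLL to IGFBP4 (r = 0.77), TP53BP1 to THNSL1 (r = 0.72) and DCLRE1C to the histone gene H2BC3 (r = 0.70). Within the lines, r was 0.55 over knockout and 0.82 over parental arrays for TP53BP1, and 0.83 and 0.61 for DCLRE1C. These values within a line come from the same arrays that chose the gene. The next gene was close behind for PRKDC (r = 0.76) and DCLRE1C (r = 0.69).

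Beyond the core genes, the largest averaged line difference among the listed factors described below was that of MAD2L2, the REV7 subunit that shieldin shares with polymerase zeta. MAD2L2 averaged 8.81 ± 0.14 in knockout cells, from 8.55 to 8.95, and 7.999 ± 0.13 in parental cells, from 7.78 to 8.17 (log2 signal, SD, n = 12 arrays each). The lines did not overlap over all arrays, as was so for 5.65% of all genes and for 0 of the 9 core genes. The difference was 0.81 (SE 0.05, limma adjusted p = 1.47e-14), and it was called in all 4 conditions. Its 20 neighbours on chromosome 1 had a median of -0.0002, with 4 called higher and 1 lower, and 1 had a difference above its own. That neighbour is the measured gene directly beside MAD2L2, with a difference of 1.18 (limma adjusted p = 9.26e-13).

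Of 13 listed genes of the chromatin response and of the 53BP1, RIF1 and shieldin branch, 11 were measured; 3 were called higher and 1 lower in the averaged line difference (15.8% of all genes were higher and 14.6% lower), with a median of 0.01 against -0.02 for all genes. Besides MAD2L2, SHLD2, a shieldin subunit, was higher, with 7.33 ± 0.19 in knockout cells and 6.99 ± 0.21 in parental cells (difference 0.34, adjusted p = 0.000154). Of the 20 neighbours of SHLD2 on chromosome 10, 6 were called higher and 0 lower, with a median of -0.01, and 5 had a difference above its own. These 5 lay between 0.44 and 1.02, and several of the other neighbours were above background on no array. H2AX, the histone variant phosphorylated around breaks, was higher by 0.09 (9.80 ± 0.09 in knockout cells and 9.71 ± 0.06 in parental cells, adjusted p = 0.0405). Beside H2AX, 2 of 20 neighbours were called higher and 1 lower. SHLD1, another shieldin subunit, was lower, with 4.79 ± 0.17 in knockout cells and 5.16 ± 0.21 in parental cells (difference -0.37, adjusted p = 0.000689). Of the 20 neighbours of SHLD1 on chromosome 20, 12 were called lower and 0 higher, with a median of -0.50.

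Of 12 listed accessory factors of classical end joining, 11 were measured; 2 were called higher and 1 lower, against the same 15.8% and 14.6% of all genes, with a median of 0.05. SETMAR, a histone methyltransferase fused to a transposase, averaged 6.96 ± 0.20 in knockout cells and 6.66 ± 0.15 in parental cells (difference 0.30, adjusted p = 0.000766), and 9 of its 18 measured neighbours were called higher and 1 lower, with a median of 0.23. The WRN helicase was higher by 0.16 (6.45 ± 0.11 in knockout cells and 6.29 ± 0.20 in parental cells, adjusted p = 0.0429). APLF, which binds Ku80 and poly(ADP-ribose), was lower, with 4.92 ± 0.14 in knockout cells and 5.15 ± 0.24 in parental cells (difference -0.23, adjusted p = 0.0438). Beside APLF, 6 of 20 neighbours were called higher and 2 lower, and the same counts held beside WRN.

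Of 13 listed genes of resection and alternative end joining, the routes that compete for the same ends, 12 were measured; 2 were called higher and 3 lower, again against 15.8% and 14.6% of all genes, with a median of -0.01. The lower ones were NBN, a subunit of the MRE11 complex (5.98 ± 0.22 in knockout cells and 6.38 ± 0.15 in parental cells, difference -0.40, adjusted p = 3.74e-05), RAD50, its partner (9.01 ± 0.13 in knockout cells and 9.23 ± 0.08 in parental cells, difference -0.22, adjusted p = 5.12e-05), and the resection nuclease EXO1 (6.79 ± 0.13 in knockout cells and 7.15 ± 0.18 in parental cells, difference -0.36, adjusted p = 5.76e-06). BRCA1 was higher by 0.22 (6.26 ± 0.19 in knockout cells and 6.04 ± 0.20 in parental cells, adjusted p = 0.0365), and so was XRCC1, the scaffold of break repair with ligase III, by 0.18 (8.19 ± 0.15 in knockout cells and 8.01 ± 0.14 in parental cells, adjusted p = 0.00296). Of the 20 neighbours of NBN on chromosome 8, 10 were called lower and 1 higher, with a median of -0.18. Beside EXO1, 5 of 20 were called lower and 2 higher, with a median of -0.06, and beside RAD50 2 were lower and 2 higher. Beside BRCA1 3 of 20 were called higher and 2 lower, and beside XRCC1 2 were higher and 1 lower. In the lists above the calls of APLF, WRN, H2AX and BRCA1 were lost in 14, 14, 13 and 10 of the 24 fits that left out 1 array, while those of the other 8 named genes held in all 24. Without both narrow arrays, WRN (0.13, adjusted p = 0.121), H2AX (0.08, adjusted p = 0.0830) and BRCA1 (0.15, adjusted p = 0.156) also lost their calls. The lymphoid genes RAG1, RAG2 and DNTT, which make and process breaks in V(D)J recombination, were above background on 1, 4 and 0 of 24 arrays, and 0 of 3 were called (limma; DNTT had an unadjusted p of 0.0475). No gene of these lists was called in any irradiation response.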

How the data were processed

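The authors deposited 1 log2 signal for each probe set and each of the 24 arrays. Per the submitters' processing notes these were made with RMA, which subtracts background, equalises the signal distributions of the arrays and summarises probes, in Affymetrix Expression Console 1.1. Of 24351 probe sets, 17709 have 1 gene symbol in the platform annotation; for 20 genes with several, the one with the highest mean was kept, leaving 17687 genes, with no filter on dim ones. The background level is the 95th percentile of negative control probe sets on each array.

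A limma 3.58.1 model (R 4.3.3) of the 8 group means was fitted to all 24 arrays with a variance trend on intensity, and gave 17 differences and 1 F-test. Calls needed an adjusted p below 0.05, by the Benjamini-Hochberg method over all 17687 genes. All p-values come from this two-sided fit unless another is named. The fit was also run on simulated data with independent normal noise for each gene and array. Those data held no shared deviation of replicates and no arrays of narrow range, so the run does not cover these features. Precision is limited by the number of arrays, which have no read depth. Same-numbered replicates deviated together (every correlation above 0.1, from the data, not the labels) in 8 of 17 differences, among them the averaged line difference (0.13 to 0.44) and that at 2 Gy, 24 h (0.15 to 0.23), and for those the blocked value is given where it changed a call.

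The genes, the lists of other end-joining factors and the tests were chosen with earlier results of these data known. Other genes are named by rule: up to 5 called genes of each list with the largest averaged line difference, and the 1 nearest pattern of each gene. Alternatives were other filters, trends, weights, normalization, the block and left-out arrays. MDC1, SHLD3, RBBP8 and the marker NR0B1 are not analysed here, and 1 other listed gene is not reported here.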

Additional observations from a re-analysis of the deposited data

How the results depend on the processing

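With 3 arrays a group, the number of arrays limits the precision. Over the 9 end-joining genes, 1154 of 1197 single values under the alternatives other than leaving out 1 array kept their sign and their side of the threshold, 10 gained a call, 1 lost it and 32 changed sign. When each array was left out in turn, 1372 of 1512 kept both, 10 gained a call, 1 lost it and 129 changed sign. The values that changed sign were at most 0.19 in size with all arrays and were called in neither fit. Of the 32, 16 changed sign without both narrow arrays, 12 with array weights and 4 with quantile normalization again. Those with a size over 0.1 were XRCC4 between the lines at 2 Gy, 24 h (0.17, and -0.02 without the narrow arrays) and at 2 Gy, 4 h (0.14, and -0.10 without them or -0.08 with weights), its response in parental cells at 4 h (-0.17, and 0.07 or 0.03), the response of LIG4 there (-0.17, and 0.02 without the narrow arrays) and its difference of responses at 4 h (0.19, and -0.0013 without them). The cause of each change below was not tested.

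Leaving out 1 array, the number of genes called between the lines was 3 to 5 on average, 0 to 1 at 2 Gy, 24 h, 0 to 1 at 0 Gy, 24 h, 0 to 1 at 2 Gy, 4 h and 1 to 2 at 0 Gy, 4 h, and that for time on average was 0 to 1. The averaged differences of NHEJ1 (0.36 to 0.45), DCLRE1C (0.30 to 0.37) and PRKDC (-0.17 to -0.14) were called in all 24 such fits. LIG4 and XRCC4 were both called without replicate 2 of knockout cells at 0 Gy, 24 h (5 genes in all), XRCC4 alone without replicate 1 of parental cells at 2 Gy, 4 h or replicate 3 at 2 Gy, 24 h, and LIG4 alone without replicate 3 of parental or replicate 1 of knockout cells at 2 Gy, 4 h. Other added calls were DCLRE1C without replicate 3 of parental cells at 0 Gy, 4 h, PRKDC without replicate 1 of parental cells at 2 Gy, 24 h, NHEJ1 without replicate 2 of knockout cells at 0 Gy, 24 h, and the time difference of NHEJ1 without replicate 2 of parental cells at 2 Gy, 4 h, whose absence also ended the call of NHEJ1 in that condition.

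Without both arrays of narrow signal range, 0 of the 9 genes were called between the lines at 2 Gy, 4 h (limma, adjusted p = 0.0885 for NHEJ1), beside 1729 of all genes. At 0 Gy, 24 h 1 was called (XRCC4, adjusted p = 0.0315), beside 2259 of all genes, and for time on average 1 (NHEJ1), beside 642. With array weights, 2 were called at 0 Gy, 4 h (2560 of all genes) and 1 at 0 Gy, 24 h (2375 of all genes), DCLRE1C being the added gene. With the replicate block, 5 were called on average (33.5% of all genes) and 1 at 2 Gy, 24 h (15.2%). It called 2 at 0 Gy, 24 h (DCLRE1C and XRCC4, beside 14.9% of all genes) and 2 at 2 Gy, 4 h (NHEJ1 and PRKDC, beside 15.4%). In these 2 conditions not every correlation of same-numbered replicates was above 0.1. The correlations were 0.063 to 0.071 at 0 Gy, 24 h and 0.082 to 0.333 at 2 Gy, 4 h, which does not settle whether the numbers pair the samples. The block changed no other call of the 9 genes. Over all genes, calls for irradiation on average were 52, against 216 with the block, 22 without the narrow arrays and 8 without the intensity trend, and those for time on average were 511, against 1202 with the block, 946 with array weights and 226 without the trend. In parental cells irradiation called 40 genes at 4 h, against 24 without the trend, 67 with array weights and 61 with the block, and 12 at 24 h, against 7, 22 and 60 in the same order, 4 without the narrow arrays and 28 from the compared arrays alone. Time in parental cells at 2 Gy called 123 genes, against 54, 431 and 294 in the same order, 50 without the narrow arrays and 64 from the compared arrays alone, and in knockout cells at 2 Gy it called 8, against 0, 17 and 92. With the block, 11 genes were called for irradiation of knockout cells at 4 h, 18 for time in knockout cells at 0 Gy and 3 for the difference of responses at 24 h, where 0 were called without it, none of them among the 9. Leaving out 1 array, the counts of 52, 511, 40, 12, 123 and 8 became 29 to 86, 331 to 786, 22 to 44, 3 to 7, 43 to 107 and 0 to 13.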
